A study of Mus musculus with 10 samples.

Results

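Heat shock proteins, their co-chaperones and the proteasome keep the proteins of a cell folded and remove those that cannot be folded. The genes described here were the 115 mouse protein-coding genes whose symbols start with Hspa, Hspb, Hspd, Hspe, Hsph, Hsp90, Dnaja, Dnajb, Dnajc, Psma, Psmb, Psmc or Psmd, together with Bag3. Their chromatin accessibility was read from a table of 10010 regions that the authors had selected as different between atrial cardiomyocyte nuclei of Tbx5G125R and Control mice. A region was taken as a member where it overlapped the span of such a gene, or where it lay outside every protein-coding span with such a gene as the nearest within 100 kb. By this rule 65 of the 10010 regions were members, and they belonged to 52 of the 115 genes.

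The measurement was ATAC-seq, which sequences the fragments that a transposase releases from accessible DNA. Tbx5G125R animals carried 1 copy of a G125R substitution in Tbx5, a T-box transcription factor of the atria, in the germline, so that the change was present in all cells and from conception. Control animals carried the genotype label Control, with no allele named, and all animals were 8 to 12 weeks old. Nuclei of the left and right atrium of each animal were pooled and sorted on PCM1, a protein of the cardiomyocyte nuclear envelope. There were 4 Tbx5G125R animals with 1 library each and 4 Control animals with 6 libraries, because Control animals 1 and 3 had 2 libraries each, which were summed.

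Counts summed over the table ran from 1716962 to 2414261 in the Tbx5G125R animals and from 630392 to 2776475 in the Control animals, with Control replicate 2 the lowest. The depth of the whole libraries is unknown, and no count in the table exceeded 995. Any region with higher counts, if there was one, was not analysed here. All 10 cardiomyocyte marker genes examined (Myh6, Myl7, Tnnt2 and others) had listed regions, 53 in all, of which 43 were gained and 10 lost, with a median log2 fold change of 0.71. Of the markers of other cells, 2 of 8 fibroblast genes, 2 of 8 endothelial genes and 1 of 7 smooth muscle and pericyte genes had listed regions (3, 10 and 1), each of which was gained, with median log2 fold changes of 1.01, 1.29 and 0.81. None of the 7 leukocyte, 3 epicardial, 3 neural and 3 fat genes had one. Their part in the values below was not tested. The labelled cell type was not otherwise checked, because the table holds regions that differ and not all open chromatin.

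Small heat shock proteins hold unfolding proteins in solution, HSP70 folds them with the help of J-domain proteins and nucleotide exchange factors, and HSP90 matures a set of clients that includes kinases and receptors. The chaperonin made of Hspd1 and Hspe1 folds proteins in mitochondria. BAG3 joins HSP70 to the small heat shock proteins and sends damaged sarcomere proteins to autophagy, which makes it a gene of heart muscle disease. The proteasome cuts up ubiquitin-tagged proteins in a 20S core, which a 19S particle caps and feeds.

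Many chaperone genes are switched on by heat shock factors, which bind units of the letters GAA in alternating direction, while chaperones of the endoplasmic reticulum carry an ER stress element. These motifs were searched for on both strands in promoter windows from RefSeq (GRCm38.p6), which run from 250 bases before to 50 bases after each start site and were given for 94 of the 115 genes. The windows of 36 of them lay at least partly under a listed member region. The heat shock element pair was searched as GAANNTTC, and the triplet, which contains the pair, as GAANNTTCNNGAA. The ER stress element was searched as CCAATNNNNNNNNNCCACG and contains the CCAAT box.

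Promoters are printed below for the genes of the best known response elements, a choice made after the matches were seen. Each sequence runs 5′ to 3′ on the strand of its gene with the motif in capitals, and positions are counted with the start site as 0. The promoter of Hspb1, a small heat shock protein (chr5:135887669-135887918, plus strand), held 2 pairs whose first bases lay at -117 and -97.
Hspb1: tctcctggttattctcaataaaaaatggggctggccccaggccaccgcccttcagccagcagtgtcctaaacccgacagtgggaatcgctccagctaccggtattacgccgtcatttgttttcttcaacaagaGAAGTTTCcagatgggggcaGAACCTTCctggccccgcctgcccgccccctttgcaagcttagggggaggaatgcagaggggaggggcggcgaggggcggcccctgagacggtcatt

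Hspe1, the lid of the mitochondrial chaperonin, shares its promoter with Hspd1 and held 2 overlapping triplets at -89 and -84, of which 30 bases are shown (chr1:55088053-55088082, plus strand). Hspb8, a partner of BAG3, held a pair at 2 (chr5:116422844-116422873, minus strand), and Bag3 itself a pair at 42 (chr7:128523603-128523632, plus strand). The stress-inducible HSP70 genes Hspa1a (chr17:34972223-34972290) and Hspa1b (chr17:34959305-34959372), both on the minus strand, held the same pair at -104. Their 2 promoter windows were identical at 296 of 300 bases. Dnaja4, a J-domain protein, held pairs at -90 and -52, the first of which is shown (chr9:54699458-54699487, plus strand).
Hspe1: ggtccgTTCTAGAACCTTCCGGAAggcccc
Hspb8: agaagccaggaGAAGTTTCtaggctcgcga
Bag3: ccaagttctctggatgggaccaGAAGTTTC
Hspa1a: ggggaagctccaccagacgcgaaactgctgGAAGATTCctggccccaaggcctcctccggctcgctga
Hspa1b: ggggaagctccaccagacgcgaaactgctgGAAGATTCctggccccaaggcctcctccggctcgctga
Dnaja4: ggaacctccgcGAACGTTCtgggcctatgt

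Hspa5, the HSP70 of the endoplasmic reticulum also called BiP (chr2:34771840-34772089, plus strand), held 1 ER stress element at -65. Hsp90b1, the HSP90 of the same compartment (chr10:86705445-86705694, minus strand), held 2, at -212 and, on the opposite strand, at -107. Dnajc3, a J-domain protein of the endoplasmic reticulum (chr14:118937797-118937875, plus strand), held 1 at -105.
Hspa5: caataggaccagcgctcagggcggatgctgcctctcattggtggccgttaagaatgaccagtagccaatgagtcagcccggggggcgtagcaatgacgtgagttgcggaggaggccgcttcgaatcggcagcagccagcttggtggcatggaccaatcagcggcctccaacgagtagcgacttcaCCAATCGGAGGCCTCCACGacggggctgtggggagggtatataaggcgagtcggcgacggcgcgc
Hsp90b1: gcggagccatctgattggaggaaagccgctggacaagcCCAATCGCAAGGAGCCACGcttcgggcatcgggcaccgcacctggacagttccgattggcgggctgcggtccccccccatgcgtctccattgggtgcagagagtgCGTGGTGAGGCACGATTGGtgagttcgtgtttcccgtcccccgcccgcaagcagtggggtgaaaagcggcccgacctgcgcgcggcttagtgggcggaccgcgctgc
Dnajc3: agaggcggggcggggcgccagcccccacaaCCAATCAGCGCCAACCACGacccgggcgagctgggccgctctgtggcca

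Most of the listed regions at these genes were gained, on a scale between the genotypes that is described below. Of the 65 member regions, 62 were gained, that is higher in Tbx5G125R animals, and 3 were lost. The gained share was 95.4% of the members, against 88.4% of the whole table. The lost share of the whole table was 11.6%. All 65 passed at an adjusted p of 0.05 in the quasi-likelihood test of edgeR, as did every region of the table, an outcome largely set in advance because the authors had selected the regions on the same animals. The values are scaled counts, which are read counts divided by a factor per animal, and fold changes are Tbx5G125R over Control.

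The size of the increase was ordinary for the table. The median log2 fold change was 0.72 over the 65 members (quartiles 0.63 and 0.81) and 0.72 over all 10010 regions (quartiles 0.58 and 0.94). Among gained regions alone it was 0.73 in the members and 0.76 in the table. The 4 Tbx5G125R animals lay above the 4 Control animals without overlap at 62 member regions, against 84.3% of the table, and below them at 2, against 8.46%. Only 7 members rose at least 2-fold, 10.8% of them against 20.6% of the table.

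The members' gained regions had similar medians in each mutant animal. Libraries were scaled within each genotype over this same table, so this likeness was largely set in advance. Relative to the mean of the Control animals, both as log2 (scaled count + 1), the median log2 ratio over the 62 gained member regions was 0.76, 0.66, 0.71 and 0.79 in Tbx5G125R animals 1 to 4, against 0.76, 0.77, 0.74 and 0.76 over all gained regions of the table. In the Control animals it ran from -0.02 to 0.03. Tbx5G125R replicate 2 thus had the lowest member median and, over the table, the highest.

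The scale between the genotypes decides most of this. The table holds mostly regions that changed one way and no library totals, so 1 offset, matched to the normalisation of the authors, placed Tbx5G125R against Control animals. With each animal scaled instead to its own median over the table, the median log2 fold change was 0.02 over the members and 0.03 over all regions. On that scale 36 of the 65 members lay above 0. It called 2 members higher (Hspb7 region 1 and Dnajc16 region 1), where 8.59% of the table was called higher, and the 3 lost members lower, where 12.2% was called lower. No other member passed the test on that scale. Every value below uses the main scale unless another is named.

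**Figure D1:**
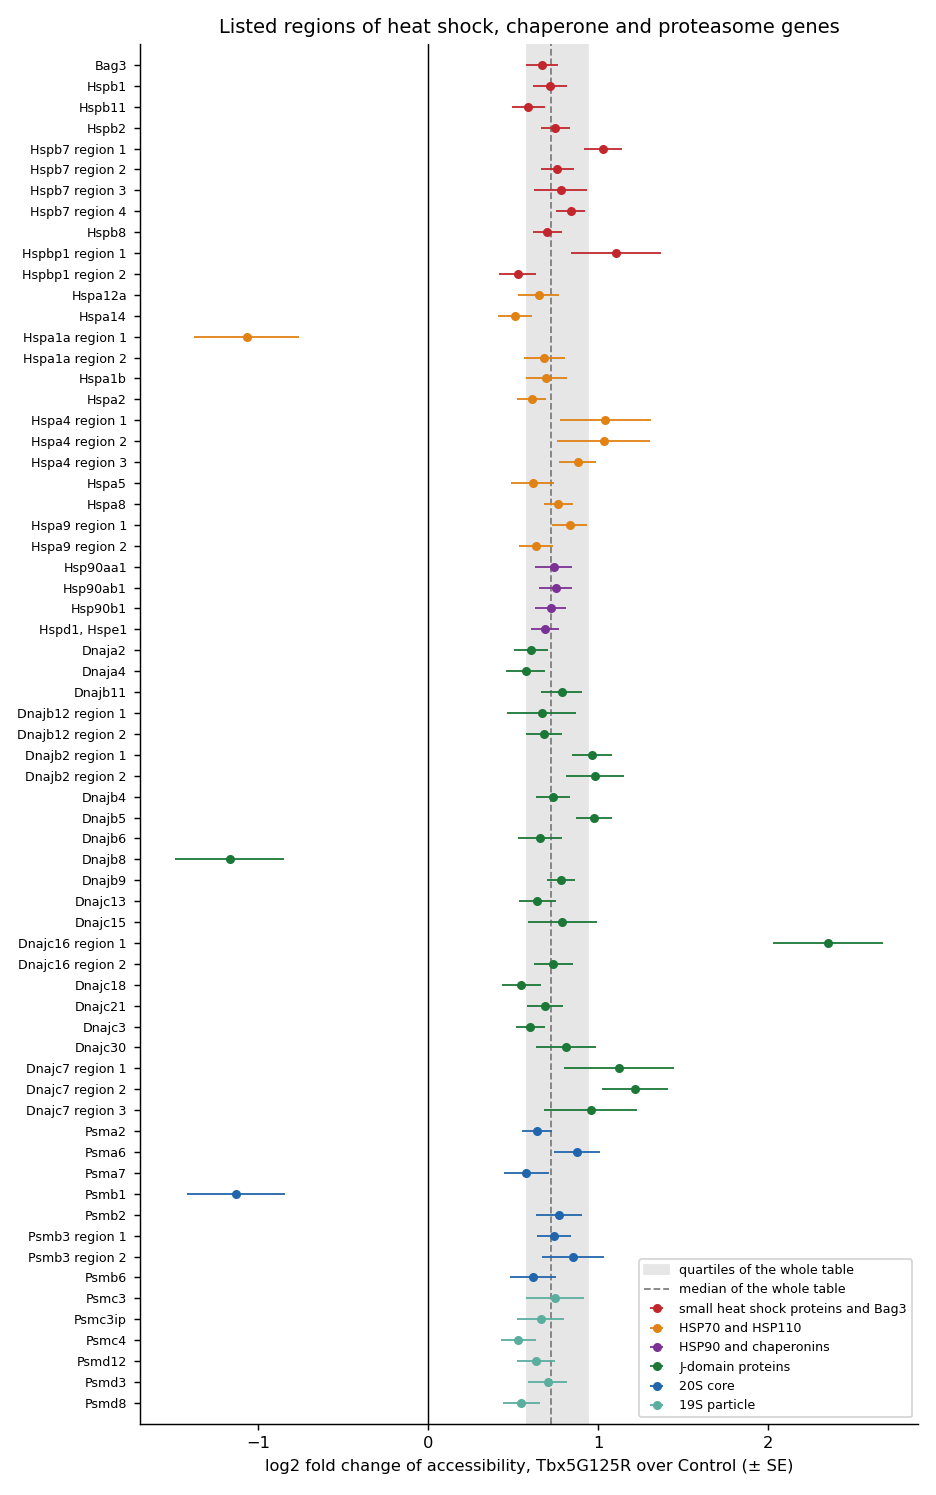
Log2 fold change of accessibility (Tbx5G125R over Control, x axis) of the 65 member regions, 1 per line and coloured by the role of the gene; points are fitted values, bars are standard errors, and the grey band and dashed line give the quartiles and median of all 10010 regions. All but 3 regions lie to the right of 0, most of them near the dashed line at 0.72, and the region of largest change is Dnajc16 region 1 at 2.35.

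Gene by gene, 45.2% of the 115 members had a listed region, against 27.8% of all 21887 protein-coding genes (6079). The 2 shares are a description, and whether listing depends on level or length was not tested. Member genes with a listed region had a median span of 13.9 kb, and those without had 16.2 kb. By role, all 5 genes of HSP90 and the mitochondrial chaperonin had a region, 9 of 14 of the HSP70 and HSP110 family, 7 of 11 of the small heat shock group, 18 of 45 J-domain genes, 7 of 19 genes of the 20S core and 6 of 21 of the 19S group. The genes without one included the inducible J-domain genes Dnaja1 and Dnajb1, the HSP110 gene Hsph1, the small heat shock genes Hspb3 and Hspb6, and the immunoproteasome genes Psmb8, Psmb9 and Psmb10. Nothing is known here of their accessibility.

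Median log2 fold changes differed little between roles. They were 0.75 over the 11 regions of the small heat shock group, 0.68 over 13 regions of HSP70 and HSP110, 0.73 over 4 regions of HSP90 and chaperonins, 0.74 over 23 regions of J-domain genes, 0.69 over 8 regions of the 20S core and 0.65 over 6 regions of the 19S group. No region of a proteasome gene rose 2-fold, and all 7 regions that did belonged to chaperone genes, of 51 chaperone and 14 proteasome regions. The difference between roles was not tested.

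The group of small heat shock proteins and Bag3, which also holds Hspbp1 and Hspb11 by their symbols, had 11 regions, all of them gained, where 88.4% of the table was gained. Hspb3 and Hspb6 had no region. At the start site of Hspb1 the scaled counts were 479.5, 396.0, 502.5 and 464.5 in Tbx5G125R animals, against 248.6, 289.7, 274.4 and 320.1 in Control animals. The groups did not overlap, and the log2 fold change was 0.72 ± 0.10 (SE, edgeR adjusted p 5.23e-07). This region (chromosome 5, 135887501 to 135888250) covers the promoter printed above with its 2 heat shock element pairs.

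Hspb8 and Bag3, whose products act as a complex, were both gained at their start sites. Hspb8 (chromosome 5, 116422501 to 116423500) had 761.3, 688.0, 727.4 and 838.1 scaled counts in Tbx5G125R animals, against 457.2, 512.3, 441.9 and 458.0 in Control animals, a log2 fold change of 0.70 ± 0.08. Bag3 (chromosome 7, 128523001 to 128524250) had 633.6, 477.9, 586.3 and 624.2, against 365.0, 345.4, 379.3 and 360.6 in Control animals, a log2 fold change of 0.67 ± 0.09. Every Tbx5G125R animal was above every Control animal at both. At the table's median scale both were near 0, with 0.01 for Hspb8 and -0.02 for Bag3.

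Hspb7, a small heat shock protein restricted to heart and skeletal muscle that protects the sarcomere, had 4 regions, the most of any member. Region 1 (chromosome 4, 141419001 to 141420750), whose tested bin is centred at -778 bp from the start site, had 476.8, 389.3, 424.4 and 446.2 scaled counts in Tbx5G125R animals, against 246.8, 150.7, 218.4 and 203.7 in Control animals. Its log2 fold change was 1.03 ± 0.11 (edgeR adjusted p 1.5e-08), and it was one of the 2 members still called higher at the table's median scale (0.34, adjusted p 0.029).

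The other 3 regions of Hspb7 rose by less, and their animals did not overlap either. Region 2, at the start of the span, had a log2 fold change of 0.76 ± 0.10 and region 3, inside it, 0.78 ± 0.15. Region 4, which starts 191 bp past the end, had 908.9, 786.3, 904.3 and 843.9 scaled counts in Tbx5G125R animals, against 529.6, 414.9, 473.5 and 487.1 in Control animals. It had the highest mean count in Tbx5G125R animals of all member regions (861 ± 57.9, SD, n = 4), with a Control mean of 476 ± 47.4 (SD, n = 4) and a log2 fold change of 0.84 ± 0.08.

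The remaining regions of this group were those of Hspb2, Hspb11 and Hspbp1. The region of Hspb2 (chromosome 9, 50752001 to 50753000), at an end of its span, also overlaps Cryab, the gene of the abundant cardiac chaperone alpha B-crystallin. It had 823.2, 820.0, 875.2 and 709.4 scaled counts in Tbx5G125R animals, against 491.3, 519.2, 438.3 and 487.1 in Control animals (log2 fold change 0.75 ± 0.08). Hspbp1, a nucleotide exchange factor of HSP70 that the rule admits by its symbol alone, had a low-count region inside its span with 42.1, 43.4, 54.6 and 70.6, against 29.0, 16.2, 26.5 and 21.5 in Control animals (1.10 ± 0.26). Hspb11, which encodes a protein of ciliary transport, rose by 0.59 at a region that also overlaps Lrrc42.

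**Figure D2:**
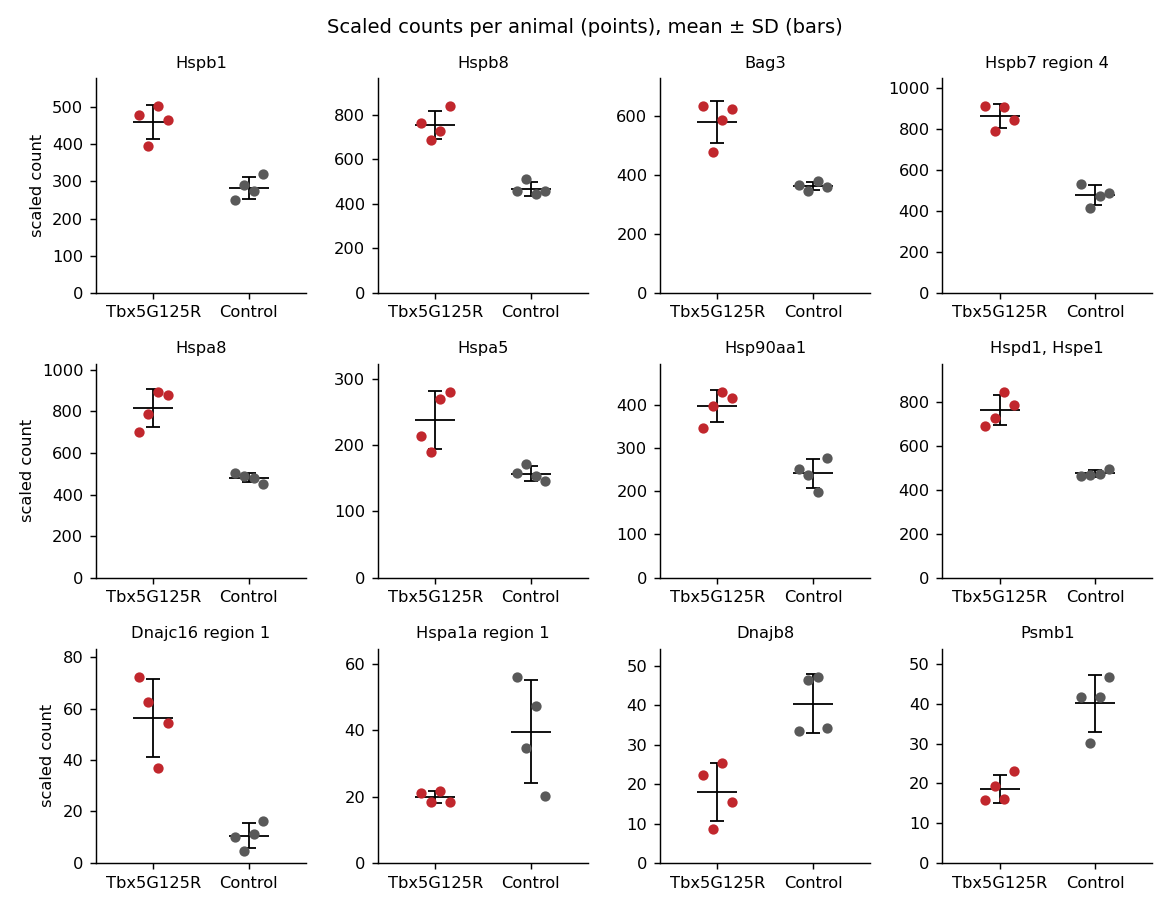
Scaled count of each animal (points, y axis) at 12 member regions, with Tbx5G125R animals on the left and Control animals on the right of each panel; horizontal lines are means and bars are SD over 4 animals. The 9 gained regions shown have every Tbx5G125R animal above every Control animal, while at the lost region of Hspa1a the lowest Control animal (20.2) lies within the Tbx5G125R animals.

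The HSP70 and HSP110 family had 13 regions, of which 12 were gained and 1 was lost. Hspa8, the constitutive HSP70 of the cytosol, had the highest level of the family at a region at an end of its span (chromosome 9, 40801001 to 40801500), with 702.1, 787.2, 895.9 and 879.7 scaled counts in Tbx5G125R animals, against 502.4, 491.4, 477.5 and 451.7 in Control animals. The groups were well apart, and the log2 fold change was 0.77 ± 0.09 (edgeR adjusted p 2.51e-08). Hspa9, the HSP70 of mitochondria, rose by 0.83 ± 0.10 at an end of its span and by 0.64 ± 0.10 at a region 79150 bp outside it, assigned only as nearest gene.

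Hspa5 was gained with a wider spread among Tbx5G125R than among Control animals. Its start site region (chromosome 2, 34771751 to 34772500) had 213.4, 188.9, 269.1 and 280.7 scaled counts in Tbx5G125R animals, against 158.2, 171.5, 152.7 and 145.5 in Control animals. Tbx5G125R replicate 2 was just above the highest Control animal, and the log2 fold change was 0.61 ± 0.13 (edgeR adjusted p 7.97e-05). At the table's median scale it was -0.08.

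Hspa4, an HSP110-type exchange factor of HSP70, had 3 regions. At the start site (region 3; chromosome 11, 53299751 to 53301250) the scaled counts were 457.1, 424.0, 408.4 and 324.2 in Tbx5G125R animals, against 211.5, 213.3, 208.7 and 245.5 in Control animals, a log2 fold change of 0.88 ± 0.11. Regions 1 and 2, inside the span, had low counts and rose at least 2-fold, by 1.04 ± 0.27 and 1.03 ± 0.27. Among them Control animals ran from 18.5 to 32.9 and Tbx5G125R animals from 32.0 to 60.2, without overlap within either region.

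The inducible HSP70 genes Hspa1a and Hspa1b were gained at their promoters and Hspa1a was lost at its other end. Hspa1b (chromosome 17, 34959251 to 34959750) had 407.0, 363.3, 548.6 and 560.4 scaled counts in Tbx5G125R animals, against 239.9, 299.0, 320.2 and 311.3 in Control animals, a log2 fold change of 0.70 ± 0.12. The promoter of Hspa1a (region 2), which also overlaps a part of the promoter window of Hspa1l, rose by 0.68 ± 0.12. Reads of these near-identical promoters may have been placed on either copy, so the 2 values may not be independent.

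Region 1 of Hspa1a (chromosome 17, 34968751 to 34969500), with its tested bin centred 2906 bp after the start site at the far end of the span, went the other way. It had 21.1, 18.3, 21.6 and 18.4 scaled counts in Tbx5G125R animals, against 56.2, 34.8, 47.3 and 20.2 in Control animals. The log2 fold change was -1.07 ± 0.31 (edgeR adjusted p 0.00181). It was the only member region where the groups overlapped, because Control replicate 4 lay among the Tbx5G125R animals. Whether its reads may also have been placed on either gene copy was not examined, because only the promoter windows were compared.

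The other family members, Hspa2, Hspa12a and Hspa14, were each gained over the start site by 0.51 to 0.65. The region of Hspa12a also overlaps Eno4. Hspa14, which acts at the ribosome, had the lowest log2 fold change of all gained members (0.51 ± 0.10).

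HSP90 and the chaperonins had 4 regions for 5 genes, all gained and within a narrow range of 0.69 to 0.75. Hsp90aa1, the stress-inducible HSP90 of the cytosol (chromosome 12, 110696001 to 110697000, at an end of the span), had 346.4, 396.0, 430.1 and 416.2 scaled counts in Tbx5G125R animals, against 251.5, 236.4, 199.1 and 277.1 in Control animals (log2 fold change 0.74 ± 0.11). Its constitutive counterpart Hsp90ab1 had a mean of 408 ± 18.6 in Tbx5G125R animals, against 246 ± 22.1 in Control animals (SD, n = 4 each), a log2 fold change of 0.75 ± 0.10. Neither gene had a promoter window, so whether the region lies at the start or the far end of the span was not determined.

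Hsp90b1, whose promoter with 2 ER stress elements is printed above, and the shared promoter of Hspd1 and Hspe1 were gained over their start sites. The region of Hsp90b1 also overlaps Ttc41. Hsp90b1 (chromosome 10, 86705251 to 86706250) had 557.2, 558.9, 598.5 and 709.4 scaled counts in Tbx5G125R animals, against 381.8, 382.5, 330.4 and 388.4 in Control animals (0.72 ± 0.09 on the log2 scale). Hspd1 and Hspe1 (chromosome 1, 55087501 to 55088500) had 688.9, 727.5, 847.9 and 786.8, against 463.5, 468.2, 472.4 and 494.7 in Control animals (0.69 ± 0.08). Control animals at the chaperonin promoter were close together, with an SD of 13.8 about a mean of 475 (n = 4), against 69.6 about 763 in Tbx5G125R animals (n = 4).

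J-domain genes gave the widest spread, with 22 of 23 regions gained and 1 lost. The largest change of all members was inside the span of Dnajc16, a little studied J-domain protein of the endoplasmic reticulum. At region 1 (chromosome 4, 141783501 to 141785000), whose tested bin is centred 6394 bp after the start site, scaled counts were 72.4, 62.6, 36.7 and 54.2 in Tbx5G125R animals, against 9.9, 4.6, 11.2 and 16.4 in Control animals. These counts are low, and before scaling Control animals 1 to 4 had 17, 2, 22 and 13 reads. The log2 fold change was 2.35 ± 0.32 (edgeR adjusted p 4.35e-07), at percentile 99.2 of the table. It stayed past the threshold at the table's median scale (1.66, adjusted p 0.000171), while the promoter of the same gene rose by 0.74 ± 0.12.

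Dnajc7, a co-chaperone that binds both HSP70 and HSP90, had 3 regions and no listed region over its start sites. Region 2, at the end of the span (chromosome 11, 100583751 to 100586000), had 104.1, 101.2, 127.0 and 103.6 scaled counts in Tbx5G125R animals, against 38.2, 34.8, 49.9 and 63.3 in Control animals, a log2 fold change of 1.22 ± 0.19. Regions 1 and 3 rose by 1.12 ± 0.33 and 0.96 ± 0.27 at lower counts. Regions 1 and 2 also overlap Cnp, a gene of myelin-forming cells, so they cannot be given to Dnajc7 alone.

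Of the other J-domain genes, Dnajb2, Dnajb5 and Dnajb9 stood out by change or level. Dnajb2 rose by 0.96 ± 0.12 at its start site and by 0.98 ± 0.17 inside its span, where Tbx5G125R animals had 142.3, 165.7, 139.3 and 169.4 scaled counts, against 91.5, 39.4, 73.8 and 93.6 in Control animals. Dnajb5 rose by 0.98 ± 0.10, the highest value among the 32 member regions over a start site. Dnajb9, a chaperone of the endoplasmic reticulum induced by the unfolded protein response, had 866.7, 878.8, 750.0 and 829.4, against 466.4, 493.7, 448.5 and 536.5 in Control animals (0.78 ± 0.08). Dnajb11 and Dnajc3, of the same compartment, rose by 0.79 and 0.60, and the region of Dnajb11 also overlaps Tbccd1.

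The lost region of this group was nearest to Dnajb8, a gene best known from testis, and lay 8495 bp outside its span (chromosome 6, 88231751 to 88232500). It had 22.4, 8.7, 25.4 and 15.5 scaled counts in Tbx5G125R animals, against 33.6, 46.4, 47.3 and 34.2 in Control animals. The groups did not overlap, and the log2 fold change was -1.17 ± 0.32 (edgeR adjusted p 0.00121).

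Proteasome genes had 14 regions, of which 13 were gained, by 0.53 to 0.87 on the log2 scale. In the 20S core, Psma2, an alpha subunit, had 522.9, 564.7, 585.3 and 662.9 scaled counts at its start site in Tbx5G125R animals, against 376.0, 412.6, 377.8 and 344.1 in Control animals (0.64 ± 0.09). This region also overlaps Mrpl32. The largest gain of the core belonged to a region 24292 bp from Psma6 (0.87 ± 0.13), followed by a region just past the end of Psmb3 (0.85 ± 0.18) and one at an end of Psmb2 (0.77 ± 0.14).

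Psmb1, a beta subunit, carried the only lost proteasome region, inside its span (chromosome 17, 15490251 to 15491000). Scaled counts there were 15.8, 19.3, 16.0 and 23.2 in Tbx5G125R animals, against 41.7, 30.1, 41.7 and 46.8 in Control animals. The groups did not overlap, and the log2 fold change was -1.13 ± 0.29 (edgeR adjusted p 0.000613).

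In the 19S group all 6 regions were gained. Psmd8, a subunit of the lid, had the highest start site level of the group, with 428.1, 419.2, 431.0 and 373.6 scaled counts in Tbx5G125R animals, against 332.0, 296.7, 274.4 and 218.9 in Control animals (0.55 ± 0.11). The lid gene Psmd12 rose by 0.63 ± 0.11 and Psmd3 by 0.70 ± 0.11, and the ATPase genes Psmc3 and Psmc4 by 0.75 ± 0.17 and 0.53 ± 0.10. Psmc3ip, which encodes a protein of meiotic recombination and no subunit, came in by its symbol and rose by 0.66 ± 0.14.

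Level differed with position. Of the 65 regions, 32 lay over a start site of their own gene, 13 at an end of the span without a known start site there, 9 inside the span and 11 outside it. All 32 over a start site were gained, with a median log2 fold change of 0.66, and the 2608 regions of the table over any start site had 0.65, of which 2597 were gained. Counted in the same way, 50.8% of member regions and 26.1% of all regions lay over a start site. Start sites were given for 94 of the 115 member genes and 17492 of all 21887 genes, so both shares may be too low. Median scaled counts over member start sites were 402 in Tbx5G125R animals and 252 in Control animals, against 52.7 and 24.4 at the 9 regions inside a span.

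None of the 7 regions that rose at least 2-fold lay over a start site, although Hspb7 region 1 ended 29 bp before one and reached into its promoter window. The 3 lost regions did not lie over a known start site either, although no start site was given for Psmb1. Each had a Control mean near 40 (39.6 at Hspa1a, 40.4 at Dnajb8 and 40.1 at Psmb1). A low count carries a wider error, and standard errors were 0.29 to 0.32 at the lost regions, against 0.08 to 0.14 at the 32 regions over a start site.

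**Figure D3:**
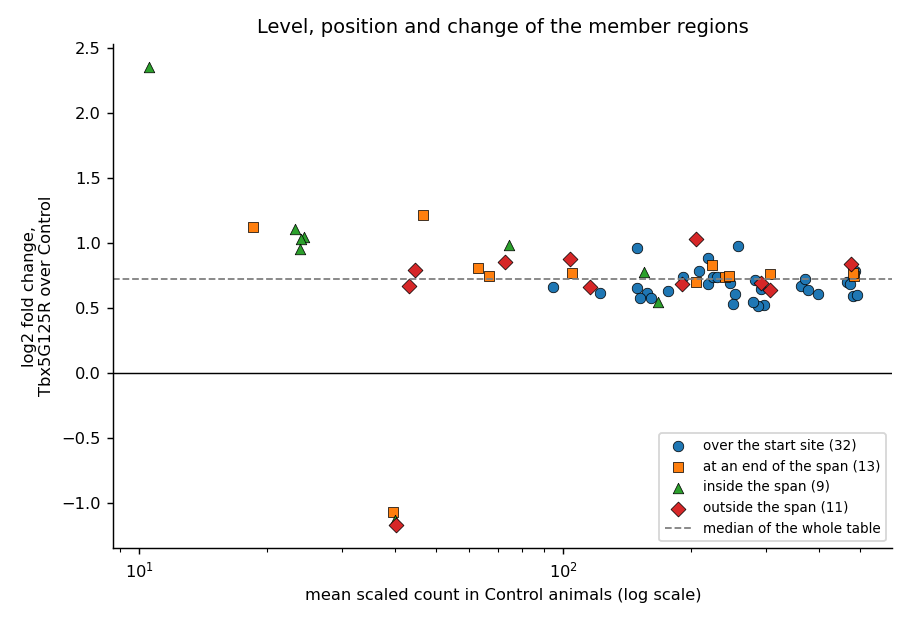
Log2 fold change (Tbx5G125R over Control, y axis) against the mean scaled count in Control animals (x axis, log scale) for the 65 member regions, with symbols for where the region lies. Regions over a start site (circles) lie between 0.51 and 0.98 at Control means of 94.7 to 492, and the 7 gained regions at or above 1, of which Hspb7 region 1 ends 29 bp before a start site, and the 3 lost regions carry other symbols.

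The heat shock element pair was frequent in member promoters under a listed region. It was held by 8 of 36 such genes (22.2%), against 4.9% of the 2800 genes with any promoter under a listed region and 8.4% of all 17492 genes. Among the 8, Hspd1 and Hspe1 share 1 sequence and Hspa1a and Hspa1b have nearly identical windows, so they are not 8 separate promoters. Member promoters without a listed region held it in 9 of 58 genes (15.5%), among them Hsph1, Dnaja1, Dnajb6 and Hspb6. The triplet was held by 2 of 36 genes, Hspd1 and Hspe1 through their shared sequence, against 0.4% and 0.6% of the larger sets. Pairs were a feature of chaperone promoters (15 of 61 genes, 24.6%), and 2 of 33 proteasome genes had one (6.1%).

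The ER stress element was held by the 3 genes printed above, Hspa5, Hsp90b1 and Dnajc3, and by no other of the 94 members with a promoter window. That is 8.3% of the 36 genes, against 0.4% of the 2800 and 0.2% of all genes. All 3 rose over the start site, by 0.61, 0.72 and 0.60 on the log2 scale, at or below the median of the table. A match describes the letters of the window and not binding.

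The antioxidant response element TGACNNNGC, the type of site through which Nfe2l1 and Nfe2l2 act on proteasome genes, was held by 4 of 36 genes (11.1%), against 18.9% of the 2800. It stood in Psmb6 at -9 (chr11:70525327-70525356, plus strand) and, on the opposite strand, in Psmd12 at -247 (chr11:107479278-107479319, plus strand).
Psmb6: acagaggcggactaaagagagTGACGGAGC
Psmd12: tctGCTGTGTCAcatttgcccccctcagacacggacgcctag

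The T-box site AGGTGTGA, the letters that Tbx5 prefers, was held by 1 of the 36 genes, Hsp90b1 at 3 (chr10:86705423-86705452, minus strand). It was found in 0.4% of the 2800 and in 1.4% of all genes, so that 1 gene carries the member share of 2.8%.
Hsp90b1: cgcgctgctggAGGTGTGAggagcttagac

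The GC box GGGCGG was held by 80.6% of the 36 genes and 81.2% of the 2800, against 49.2% of all genes. The CCAAT box was held by 44.4%, against 49.5% of the 2800. The CACCC box CCACACCC was held by 5.6% against 5.0%, and the MEF2 site CTANNNNTAG by 5.6% against 3.5%. Member promoters under a listed region had a median GC content of 64.2%, against 65.0% in the 2800 and 56.3% in all genes.

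**Figure D4:**
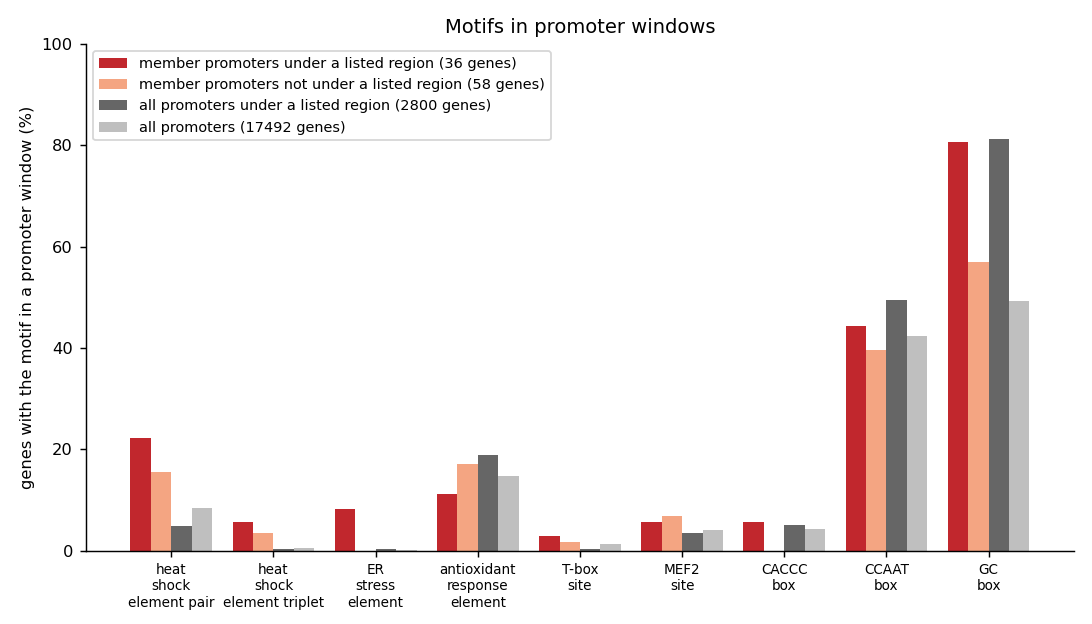
Share of genes with each motif in a promoter window (y axis, percent) for 9 motifs; red bars are member genes whose promoter lies under a listed region (36 genes), light red bars the other member genes (58), dark grey bars all genes with a promoter under a listed region (2800) and light grey bars all genes (17492). The heat shock element pair stands at 22.2% against 4.9% in the dark grey set and the ER stress element at 8.3% against 0.4%, while the GC box is nearly level at 80.6% and 81.2%.

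Further genes of protein quality control, which the rule leaves out, were listed as well. Of 64 such genes, 34 had a region, 37 regions in all, of which 32 were called higher and 5 lower, where 88.4% of the table was called higher. The region shared by Cryab and Hspb2 is counted here as well as among the members. The median log2 fold change was 0.57, against 0.72 over all regions. At the table's median scale 0 of the 37 were called higher and 6 lower, where 8.59% of the table was called higher and 12.2% lower. Of the heat shock factors only Hsf2 had a region, with 482.1, 549.2, 535.4 and 559.4 scaled counts in Tbx5G125R animals, against 387.6, 363.9, 411.4 and 340.4 in Control animals (0.49 ± 0.09), and none was listed for Hsf1. Both factors of proteasome genes were gained, Nfe2l1 by 0.64 ± 0.10 and Nfe2l2 by 0.71 ± 0.08. Stub1, the ubiquitin ligase that works with HSP70 and BAG3, rose by 0.88 ± 0.08, and the endoplasmic reticulum chaperone Hyou1 by 0.94 ± 0.13.

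The 5 regions called lower belonged to Unc45b, Bag2 and Cct2. Unc45b, the chaperone that folds muscle myosin together with HSP90, had 3 lost regions and no gained one, with log2 fold changes of -0.86, -0.93 and -1.14. At the first (chromosome 11, 82922251 to 82923000) scaled counts were 23.7, 29.9, 24.5 and 34.8 in Tbx5G125R animals, against 48.7, 55.6, 57.5 and 44.3 in Control animals. Bag2 fell by 1.09 on the log2 scale and Cct2, a subunit of the cytosolic chaperonin, by 0.88, at a region 1247 bp outside its span.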

How the data were processed

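ATAC-seq of 4 Tbx5G125R and 4 Control animals was analysed from 1 deposited table of mm10 regions. BWA, bedtools and DESeq2 are named, without versions, in the processing notes of the submitters. A shift of reads for the transposase and the removal of duplicates or of multiply mapped reads are not given in the sources used here. The authors deposited raw read counts. In 4 libraries the authors deposited the form of an estimated count, with 0 written as 0.1 (26 values), and these were rounded back to 0. They appear to belong to the 1 bin of 500 bp named for each region. The authors also deposited their log2 fold change, p-value and geometric mean signal per genotype. The geometric means equalled those of the raw counts, and no deposited fold change or p-value is printed. PCR reads are not independent molecules, and animals were separate individuals.

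Libraries of 1 animal were summed and scaled by median ratios within each genotype. The offset between genotypes, 0.29 on the log2 scale, was fitted to the authors' deposited fold changes, so directions and calls are not independent of them. It was 0.25 from gained and 0.51 from lost regions alone. Regions were tested with edgeR 4.0.16 in R 4.3.3 (quasi-likelihood, 4 against 4 animals), Benjamini-Hochberg adjusted over 10010 regions. The biological coefficient of variation was 11.6%. SE is the absolute log2 fold change divided by the root of F. The fit was tested on simulated data. Coordinates are 1-based, and gene spans and start sites come from RefSeq. An end of a span is within 1000 bp, and 11 member regions also overlap another gene.

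Regions named with values were, per role, up to 4 of largest change with non-overlapping animals, all lost ones, the highest gene end, all regions of genes with 3 or more, and those of Bag3, Hspb1, Hspb7, Hspb8, Hspa8, Hsp90aa1 and Hspa5. Hspb11, Hspa2, Hspa12a, Hspa14, Dnajb5, Dnajb11, Dnajc3, Psmc4 and single further regions of named genes were chosen after their values were seen. Members and lists were chosen with earlier results of these data known.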

Additional observations from a re-analysis of the deposited data

Results flagged for a closer look

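In 3 of the 76 groups of 4 animals examined at the named regions, 1 animal stood far from the others, and chance gives about 1 in 20. At region 3 of Hspa4, the start site, Control replicate 4 was highest with 245.5 scaled counts, against 208.7 to 213.3 in the other Control animals. At the start site of Hsp90b1, Control replicate 3 was lowest with 330.4 scaled counts, against 381.8 to 388.4. At region 2 of Dnajc7, Tbx5G125R replicate 3 was highest with 127.0 scaled counts, against 101.2 to 104.1 in the other Tbx5G125R animals. Over all member regions 4 of 130 groups were of this kind.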

How the results depend on the processing

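Fold changes rest on the scale between the genotypes, and counts of calls on the authors' own selection. With TMM factors over the table, 2 member regions were called higher in Tbx5G125R animals and the median log2 fold change over member regions was 0.01. With each animal scaled to its median over the table, 2 members were called higher, where 860 of all regions were, and the member median was 0.025. The median was 1.006 with no offset, 0.499 with the offset from lost regions alone and 1.051 with no scaling of any library. With no scaling, 0 members and 0 regions of the other protein quality control genes were called lower, where 216 of all regions were. At an adjusted p of 0.05 and at least 2-fold, 7 members were called higher, where 20.6% of the table was at least 2-fold higher. Of the other quality control genes 0 regions were called higher under TMM, at the table's median scale and at 2-fold, where 2 were called lower. The alternatives for these genes were added after seeing the data.

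Log2 fold changes changed sign under both TMM and the table's median scale for Bag3 (-0.039 and -0.023), Hspa5 (-0.093 and -0.077), Hspd1, Hspe1 (-0.02 and -0.005), Psma2 (-0.069 and -0.054), Psmc3ip (-0.046 and -0.03), Psmd12 (-0.077 and -0.06) and Psmd8 (-0.161 and -0.145). Under TMM alone they changed sign for Hspb8 (-0.006), Hspa1b (-0.012) and Psmd3 (-0.005). Of the 38 named regions 5 stayed called under either scale.

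DESeq2 1.42.0, limma 3.58.1 (pseudocounts 0.1, 1 and 5), a minimum mean scaled count of 20, single repeat libraries and an offset from gained regions alone left all 38 called in the same direction. Without each animal in turn all 65 members stayed called (highest edgeR adjusted p 0.0244). In these fits 8845 or 8846 regions of the whole table were called higher and 1131 to 1164 lower. The authors had selected the regions on the same animals, so staying called was largely set in advance. With a replicate block, 62 members were called higher and 3 lower, where 8846 of all regions were called higher and 1164 lower. The median log2 fold change was then 0.71 over member regions and 0.72 over all regions. To look for pairing, the mean of its genotype at each region was subtracted from each animal's log2 (scaled count + 1). These deviations correlated at -0.001 to 0.17 between same-numbered animals of the genotypes, and at -0.13 to 0.11 between differently numbered ones. These few weak values cannot decide whether the numbers pair the samples.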
